A study of Mus musculus with 16 samples.

Results

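The autophagy genes examined here were the 5 mammalian ATG8 family genes Gabarap, Gabarapl1, Gabarapl2, Map1lc3a and Map1lc3b, together with Ulk1, Becn1, Atg7, Atg5 and Atg12, which act upstream of them. Every probe set whose single annotated symbol was one of these 10 genes was taken, which gave 28 probe sets out of 45037 tested, of which 34945 carried 1 symbol. The array named 18193 genes in this way. A probe set is a group of short probes directed against a transcript, and the genes had from 1 (Gabarap) to 5 probe sets (Becn1). RNA of exosomes and of cells was measured on 16 Affymetrix Mouse 430 2.0 arrays in 4 groups of 4, named oxi exo, norm exo, oxi cell and norm cell. All came from MC/9, a mouse mast cell line, grown in 1 medium with fetal bovine serum and Rat T-Stim. For oxi exo and oxi cell the cultures were exposed to 125 µM H2O2 for 24 h, whereas norm exo and norm cell are from cultures without H2O2. Exosomes, small vesicles released from endosomes, were collected from the supernatant by filtration and ultracentrifugation. According to the sample labels the cells had been given exosomes of either condition, while the paper treats them as the exosome donors kept in vehicle or H2O2, and they were taken here as the cells of each condition. Separate cultures are stated only for a pair of the norm replicates, so p-values measure only the spread between these samples.

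Autophagy delivers cytoplasm to the lysosome in a double-membrane vesicle, the autophagosome. The ULK1 kinase complex starts it, the class III PI3-kinase complex with Beclin 1 (Becn1) marks the membrane with a lipid, and a pair of ubiquitin-like conjugation systems then attaches ATG8 proteins to that membrane. ATG7 activates both ubiquitin-like proteins, ATG12 is joined to ATG5, and the ATG12 to ATG5 conjugate directs the lipidation of the LC3 (Map1lc3a, Map1lc3b) and GABARAP (Gabarap, Gabarapl1, Gabarapl2) proteins, which recruit cargo and help the autophagosome to close and fuse. Oxidative stress is a known inducer of autophagy, and autophagic membranes and exosomes share the endosomal and lysosomal compartments of the cell. Much of the control of autophagy lies in lipidation, phosphorylation and turnover of the proteins, which transcript signals do not measure.

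The deposited values were MAS5.0 signals, a linear measure of brightness that was scaled by the authors to the same trimmed mean on every array. Detection calls were not used here, and the background of an array was taken as the signal that 95% of 233 probe sets of unrelated tissues stayed under (194 olfactory, lens, gut and other genes). It averaged 270.2 ± 24.2 in oxi exo, 244 ± 27.6 in norm exo, 12.6 ± 0.649 in oxi cell and 15.5 ± 1.88 in norm cell (SD, n = 4 arrays each). The spiked hybridization controls, added in equal amount to every array, were 20.8 times brighter on oxi exo than on oxi cell arrays and 17.3 times brighter on norm exo than on norm cell arrays. They were 0.814 times as bright on oxi cell as on norm cell arrays, and 0.981 times as bright on oxi exo as on norm exo arrays. Replicate arrays correlated at r = 0.533 to 0.578 in oxi exo, 0.568 to 0.625 in norm exo, 0.918 to 0.925 in oxi cell and 0.913 to 0.920 in norm cell (Pearson, log2 signals of all probe sets). Of 9 mast cell markers, 1 (Gata2) was above background on all 4 arrays of oxi exo, 6 of norm exo, 9 of oxi cell and 8 of norm cell. In bulk RNA such as this, fewer vesicles or cells of a kind and less RNA in each cannot be told apart.

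In the cells, transcripts of all 10 genes were measured, whereas in exosomes few of their probe sets stood above background. Of the 28 probe sets, 24 were above background on all 4 arrays of oxi cell and 20 on all 4 arrays of norm cell. In exosomes, 0 were above it on all 4 arrays of oxi exo and 3 on all 4 arrays of norm exo, namely Gabarapl1 1416419_s_at, Map1lc3b 1415930_a_at and Map1lc3b 1415928_a_at. Over all probe sets, 1134 reached this mark in oxi exo, 1920 in norm exo, 20019 in oxi cell and 19769 in norm cell. An exosome array had 2 to 6 member probe sets above background in oxi exo and 4 to 10 in norm exo. Becn1 1430358_at, Atg7 1428610_at, Atg7 1446633_at and Atg12 1439457_x_at were not above background on all arrays of any group, so their signals lie at the limit of measurement throughout. Each gene is represented by its probe set of highest mean signal over the 16 arrays, and signals are compared between groups of the same probe set only. A suffix _s_at marks probes shared by several transcripts, _a_at probes shared by transcripts of the same gene, and _x_at probes that may bind other transcripts too.

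**Figure D1:**
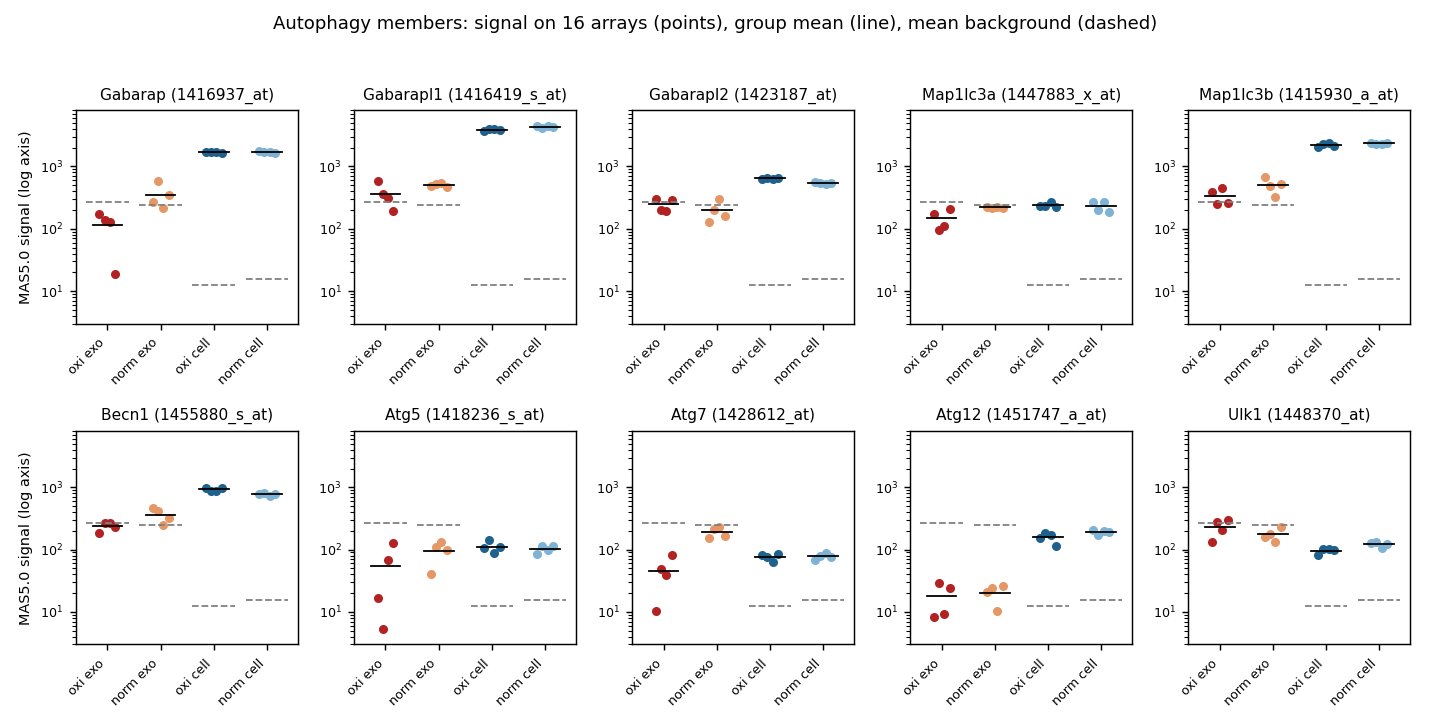
MAS5.0 signal (log axis) of the representative probe set of each of the 10 genes on 16 arrays. Points are arrays, black lines group means and dashed lines the mean background of the group (270.2 in oxi exo, 244 in norm exo, 12.6 in oxi cell, 15.5 in norm cell). The cell arrays lie far above their background for every gene, and most exosome arrays lie near or below theirs.

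The first comparison asked which autophagy transcripts differed between cells exposed to H2O2 and normal cells. Becn1 and Gabarapl2 were higher in oxi cell, 1 of the probe sets of Map1lc3a was lower, and the other ATG8 genes did not pass the test. The methods' paired test, on log2 or on linear signals, called 0 of these probe sets after an adjustment that the paper does not state. Of 28 probe sets, 4 were called higher and 1 lower by limma at an adjusted p under 0.05 (Benjamini-Hochberg over 45037 probe sets), and 11 had an unadjusted p under 0.05. Over all probe sets, 4.31% were called higher and 5.51% lower, and among the 20667 that were above background on all arrays of either group 9.33% and 11.6%, so that the 4 and 1 of 28 are near the shares of the array at large. The groups did not overlap for 4 member probe sets that were higher and 5 that were lower, against 6.38% and 9.72% of all probe sets. The median log2 difference was -0.07 over the 28 probe sets, -0.15 over all probe sets and -0.07 over the detected ones. With quantile normalization the median over all probe sets was 0.00, and with scaling to the spiked controls it was 0.15, so small differences depend on the scaling.

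At the start of the pathway, Becn1, the Beclin 1 subunit of the class III PI3-kinase complex that BCL2 can bind, had signals on its representative probe set 1455880_s_at of 969, 875, 876 and 977 in oxi cell, against 789.7, 817, 730.4 and 793 in norm cell. All oxi cell arrays were above all norm cell arrays (log2 difference 0.24, standard error 0.06, adjusted p = 0.0223). Probe set 1460320_at had 579, 562, 543 and 509.6 in oxi cell, against 506, 464, 471 and 461 in norm cell, again without overlap (log2 difference 0.21, standard error 0.06, adjusted p = 0.0467). The dim probe set 1435219_x_at had 41.4, 67.7, 36.4 and 50.0 in oxi cell, against 36.2, 29.5, 10.5 and 30.3 in norm cell (log2 difference 0.98, standard error 0.25, adjusted p = 0.0280), with norm cell above background on 3 of 4 arrays. Thus 3 of the 5 Becn1 probe sets rose, at differences that ran from 0.21 to 0.98. The other 2 were 1437006_x_at, with a log2 difference of 0.40, and 1430358_at, which was not above background on all arrays in any group. The calls for Becn1 were mostly lost when a replicate number was left out. For 1455880_s_at the adjusted p was 0.0842 without replicate 1, 0.0611 without replicate 3 and 0.120 without replicate 4. Its call held without replicate 2 (0.0290). For 1460320_at it was 0.116, 0.184, 0.0959 and 0.106 without replicates 1, 2, 3 and 4. For 1435219_x_at it was 0.136, 0.0755 and 0.0669 without replicates 2, 3 and 4, and the call held without replicate 1 (0.0209). With quantile normalization the log2 difference was 0.13 for 1455880_s_at (adjusted p = 0.0792) and 0.12 for 1460320_at (adjusted p = 0.0863), on the same side of 0 and no longer called.

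Ulk1, the kinase that starts autophagosome formation, had 81.8, 104, 102 and 98.5 in oxi cell, against 126, 130.3, 108 and 124 in norm cell on probe set 1448370_at. Every oxi cell array was below every norm cell array, but the difference missed the threshold (log2 difference -0.34, standard error 0.11, adjusted p = 0.0717). It passed without replicate 3 (log2 difference -0.43, adjusted p = 0.0389). The other Ulk1 probe set, 1416504_at, had a log2 difference of 0.05 (standard error 0.27), with overlapping groups.

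The conjugation enzymes of the list showed no called difference in cells. Atg7, the activating enzyme of both conjugation systems, had 81.4, 76.3, 63.3 and 86.5 in oxi cell, against 69.0, 78.2, 89.3 and 74.7 in norm cell (log2 difference -0.02, standard error 0.14, adjusted p = 0.955). Atg5, the acceptor of ATG12, had 106, 140.3, 87.5 and 112 in oxi cell, against 84.1, 114, 99.9 and 115 in norm cell (log2 difference 0.10, standard error 0.11, adjusted p = 0.675). Both genes had overlapping groups. Atg12, the ubiquitin-like protein itself, had 156, 186, 174 and 114 in oxi cell, against 209, 174, 201 and 194 in norm cell (log2 difference -0.33, standard error 0.12, adjusted p = 0.123), with 3 of 4 oxi cell arrays below their norm cell counterparts of the same number. Without replicate 2 the Atg12 difference was -0.47 and was called (adjusted p = 0.0464). The second and the third probe set of Atg5 differed by -0.12 and -0.01, and the other Atg7 and Atg12 probe sets by -0.84 to -0.02, none of them called.

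Within the ATG8 family, the GABARAP branch did not move as a block in cells. Gabarapl2, known as GATE-16 and first described as a Golgi transport factor, had 622, 664, 636 and 641 in oxi cell, against 569.7, 551, 523 and 542 in norm cell. It rose without overlap of the groups (log2 difference 0.23, standard error 0.06, adjusted p = 0.0272). Gabarapl1, whose product binds cargo receptors and the GABA type A receptor, had 3677, 3927, 3988 and 3844 in oxi cell, against 4457, 4130.2, 4434 and 4280.4 in norm cell on 1416419_s_at. All 4 oxi cell arrays were below all 4 norm cell arrays, though the difference was not called (log2 difference -0.16, standard error 0.05, adjusted p = 0.0748), and 1416418_at lay in the same direction with 2293, 2335, 2098 and 2181 in oxi cell, against 2486, 2391, 2344 and 2455 in norm cell (log2 difference -0.12, standard error 0.05, adjusted p = 0.184). When only probe sets above background on all arrays of either group were tested, the 1416419_s_at difference was called (adjusted p = 0.0336), an alternative chosen after the data were seen. Gabarap itself, the protein for which the branch is named, had 1678, 1722, 1732 and 1668 in oxi cell, against 1801, 1733, 1704 and 1625 in norm cell, with overlapping groups and a difference near 0 (log2 difference -0.01, standard error 0.05, adjusted p = 0.926). Scaled to the spiked controls, Gabarapl2 was 0.53 higher, Gabarap 0.28 higher (adjusted p = 0.00629) and Gabarapl1 1416419_s_at 0.13 higher on the log2 scale, so the directions of Gabarap and Gabarapl1 turn with this scaling while their order does not, as the scaling shifts all probe sets of an array alike. The second Gabarapl2 probe set, 1441376_at, had 36.8, 44.2, 55.5 and 56.5 in oxi cell, against 46.2, 29.0, 44.7 and 30.2 in norm cell, with overlapping groups (log2 difference 0.37, standard error 0.20, adjusted p = 0.312). The call for 1423187_at was lost without replicate 2, 3 or 4 (adjusted p = 0.116, 0.0800 and 0.110).

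Gabarapl2, the member of the branch that was called in cells, and Gabarapl1, the member with a called probe set in exosomes, are shown with their upstream sequence. The 250 bases before the start of each gene are given from RefSeq in the mouse build GRCm38.p6, 5′ to 3′ on the gene's strand. The Gabarapl1 window is chr6:129532942-129533191 and the Gabarapl2 window chr8:111940453-111940702, both on the plus strand, upstream of the annotated first exon. No capitals are used, since none of the motifs searched lies in them.
Gabarapl1: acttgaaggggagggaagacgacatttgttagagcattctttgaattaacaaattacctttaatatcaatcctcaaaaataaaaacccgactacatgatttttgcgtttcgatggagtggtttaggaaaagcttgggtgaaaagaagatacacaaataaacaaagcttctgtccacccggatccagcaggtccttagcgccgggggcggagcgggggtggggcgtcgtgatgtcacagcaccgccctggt
Gabarapl2: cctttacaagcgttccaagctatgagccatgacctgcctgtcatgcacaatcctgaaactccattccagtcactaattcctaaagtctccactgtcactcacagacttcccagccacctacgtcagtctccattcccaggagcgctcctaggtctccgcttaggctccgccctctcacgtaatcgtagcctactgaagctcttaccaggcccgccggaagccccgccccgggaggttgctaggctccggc
The Gabarapl1 window has a GC content of 46.8% with 12 CpG dinucleotides, and the Gabarapl2 window 57.2% with 12, against a median of 52.4% in 32851 such windows (quartiles 45.2% and 61.2%).

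In the LC3 branch, Map1lc3b, which encodes LC3B, the usual protein marker of autophagosomes, had 2015, 2257, 2382 and 2159.6 in oxi cell, against 2404, 2295, 2329.5 and 2404 in norm cell on 1415930_a_at (log2 difference -0.10, standard error 0.06, adjusted p = 0.355). On 1415928_a_at it had 1149, 1159, 1155 and 1060.3 in oxi cell, against 1242, 1259.6, 1217 and 1245 in norm cell (log2 difference -0.13, standard error 0.05, adjusted p = 0.154), where all oxi cell arrays were the lower. The remaining pair, 1415929_at and 1428024_at, differed by -0.17 and -0.19, so that all 4 Map1lc3b probe sets had a difference below 0 and 0 were called. Scaling to the spiked controls put 1415930_a_at at 0.20 (adjusted p = 0.0381), on the other side of 0. The probe sets of Map1lc3a, which encodes LC3A, disagreed. The brighter, 1447883_x_at, had 230.1, 228, 270.4 and 222 in oxi cell, against 266, 202, 266 and 188 in norm cell with overlapping groups (log2 difference 0.06, standard error 0.09, adjusted p = 0.757). The dimmer, 1451290_at, had 34.0, 37.1, 46.5 and 41.2 in oxi cell, against 74.1, 47.2, 72.0 and 57.8 in norm cell without overlap and fell (log2 difference -0.65, standard error 0.16, adjusted p = 0.0263). This call did not hold without replicate 1, 3 or 4 (adjusted p = 0.147, 0.0630 and 0.0608), with quantile normalization (-0.30, adjusted p = 0.127) or scaled to the spiked controls (-0.35, adjusted p = 0.231).

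**Figure D2:**
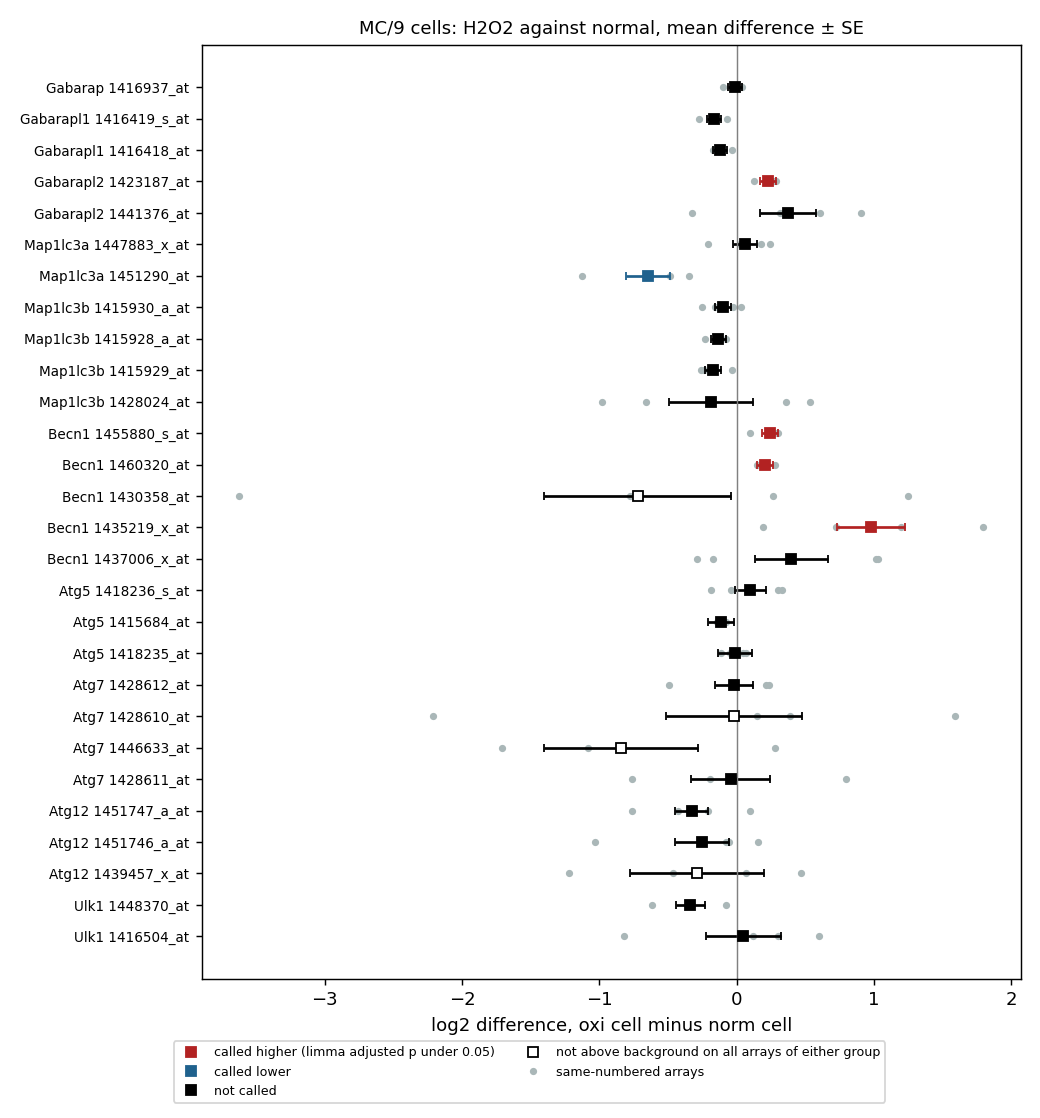
Log2 difference of oxi cell minus norm cell for all 28 probe sets, with squares for the mean, bars for the standard error of the limma fit and grey points for the 4 pairs of arrays with the same number. Red squares are Gabarapl2 1423187_at and Becn1 1455880_s_at, 1460320_at and 1435219_x_at, and the blue square is Map1lc3a 1451290_at, while the bright ATG8 probe sets lie within a narrow band on either side of 0.

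The second comparison asked how the autophagy transcripts of exosomes differed when the donor cultures had received H2O2. A probe set of Gabarapl1 and one of Map1lc3b fell in oxi exo, and no probe set rose. Of 28 probe sets, 0 were called higher and 2 lower by limma, with 5 at an unadjusted p under 0.05, whereas the methods' paired test on log2 or on linear signals called 0 after adjustment. The paper states no adjustment for that test, and it lists Gabarapl1 among the transcripts most repressed in exosomes under oxidative stress. Over all probe sets 0.0311% were called higher and 1.7% lower. Among the 2146 probe sets above background on all arrays of oxi exo or of norm exo, 0.186% were called higher and 31.4% lower. More of these passed in norm exo (1920) than in oxi exo (1134), so this choice itself favours lower values in oxi exo. Their share and median therefore do not measure a general fall. The median log2 difference was -0.48 over the members, 0.06 over all probe sets and -0.58 over the 2146 detected ones. Without overlap of the groups, 6 member probe sets were lower and 1 was higher, against 4.09% and 2.48% of all probe sets.

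Gabarapl1 was called on 1416418_at, with 66.0, 70.4, 8.57 and 5.14 in oxi exo, against 249, 228, 220.2 and 247 in norm exo. All oxi exo arrays were far below all norm exo arrays (log2 difference -3.47, standard error 0.76, adjusted p = 0.0239). These signals lay at the limit of measurement, since 0 of 4 oxi exo and 2 of 4 norm exo arrays were above their background, so no fold can be given. With values below background set to the background, the log2 difference was 0.10 (adjusted p = 0.204), and the call was lost without replicate 1, 3 or 4 (adjusted p = 0.0705, 0.0742 and 0.100). The brighter probe set of the same gene, 1416419_s_at, had 578, 366, 316 and 189 in oxi exo, against 488, 525, 541 and 473 in norm exo. There the groups overlapped through oxi exo replicate 1, the highest of the 8 arrays, and the difference was not called (log2 difference -0.59, standard error 0.28, adjusted p = 0.513). Both probe sets had lower means in oxi exo, and only 1 of them passed the test.

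Map1lc3b fell on 1415928_a_at, which had 194, 282, 44.1 and 111 in oxi exo, against 501, 563, 354 and 386 in norm exo. Here norm exo was above background on all 4 arrays and oxi exo on 1, without overlap of the groups (log2 difference -1.79, standard error 0.36, adjusted p = 0.0112). The call held without each of the 4 replicate numbers in turn, at an adjusted p of 0.0157 to 0.0388, but not with quantile normalization within the 8 exosome arrays, an alternative chosen after the data were seen (log2 difference -1.68, adjusted p = 0.0542). The brightest Map1lc3b probe set, 1415930_a_at, had 388, 254, 451 and 255 in oxi exo, against 676, 487, 320.1 and 515 in norm exo with overlapping groups (log2 difference -0.56, standard error 0.29, adjusted p = 0.560). Probe set 1415929_at, below background on every exosome array, had a log2 difference of -1.15 (adjusted p = 0.525). The dim 1428024_at, also below background on every exosome array, lay the other way at 0.43 (adjusted p = 0.901). For LC3B, as for Gabarapl1, a fall was thus called on 1 probe set of the gene only.

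Gabarap had 175, 137, 127 and 18.7 in oxi exo, against 267, 574, 213 and 343 in norm exo. The groups did not overlap, with oxi exo above background on 0 arrays and norm exo on 2, and the difference missed the threshold (log2 difference -1.91, standard error 0.51, adjusted p = 0.0857). As norm exo was itself above background on only 2 arrays, no fold can be given for Gabarap here. Where an at-least fold is given below, it sets the log2 mean of the group that was measured against the background of the other. Such a fold holds for the deposited scale only, since the size of differences between exosomes and cells changed with the scaling. The Gabarap difference was called without replicate 3 (log2 difference -2.29, adjusted p = 0.0454). Gabarapl2 had 304, 197, 195 and 293 in oxi exo, against 127, 197, 303 and 160.4 in norm exo, with overlapping groups and no call (log2 difference 0.37, standard error 0.37, adjusted p = 0.807). Map1lc3a had 172, 94.7, 112 and 210.3 in oxi exo, against 224, 218, 223 and 218 in norm exo on 1447883_x_at, lower on all oxi exo arrays without passing the test (log2 difference -0.66, standard error 0.37, adjusted p = 0.605), while 1451290_at differed by only 0.09.

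Of the upstream genes, Becn1 1460320_at had 60.4, 53.5, 126 and 62.9 in oxi exo, against 256, 266, 193 and 208 in norm exo, and Atg7 1428612_at had 10.2, 49.6, 38.8 and 82.9 in oxi exo, against 156, 215, 227 and 165 in norm exo. In both, all oxi exo arrays were below all norm exo arrays, with 0 of 4 oxi exo and 1 of 4 norm exo arrays above background, and neither was called (log2 difference -1.68, adjusted p = 0.0909 for Becn1, and -2.40, adjusted p = 0.0774 for Atg7). The 1 member probe set that was higher in oxi exo without overlap was also of Atg7. This was 1428611_at (log2 difference 0.43, adjusted p = 0.910), below background on all 8 exosome arrays. Atg7 1428610_at and 1446633_at differed by 0.08 and 0.13. The brighter Becn1 probe set 1455880_s_at had 186, 272, 267 and 229 in oxi exo, against 472, 413, 248 and 323 in norm exo, where 1 oxi exo and 3 norm exo arrays were above background (log2 difference -0.58, standard error 0.31, adjusted p = 0.571). Ulk1 1448370_at had 131, 274, 203 and 298 in oxi exo, against 161, 177, 132 and 233 in norm exo, with overlapping groups (log2 difference 0.33, standard error 0.35, adjusted p = 0.820). Atg5 and Atg12 were below background on all 8 exosome arrays on each of their probe sets. Of 9 mast cell markers, 7 had a lower mean in oxi exo than in norm exo and 2 (Tpsb2 and Tpsab1) a higher one. Their summed signal was 1600.3 to 2134 in oxi exo and 3832 to 6298 in norm exo, with 1 and 6 of 9 above background on all 4 arrays, and Fcer1a averaged 475 in oxi exo and 1719 in norm exo. The 3' to 5' signal ratio of Gapdh was 1.48 to 2.33 in oxi exo and 1.43 to 1.77 in norm exo, and that of actin 2.77 to 4.48 and 3.81 to 6.55. Their part in the falls of Gabarapl1 and Map1lc3b was not tested.

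**Figure D3:**
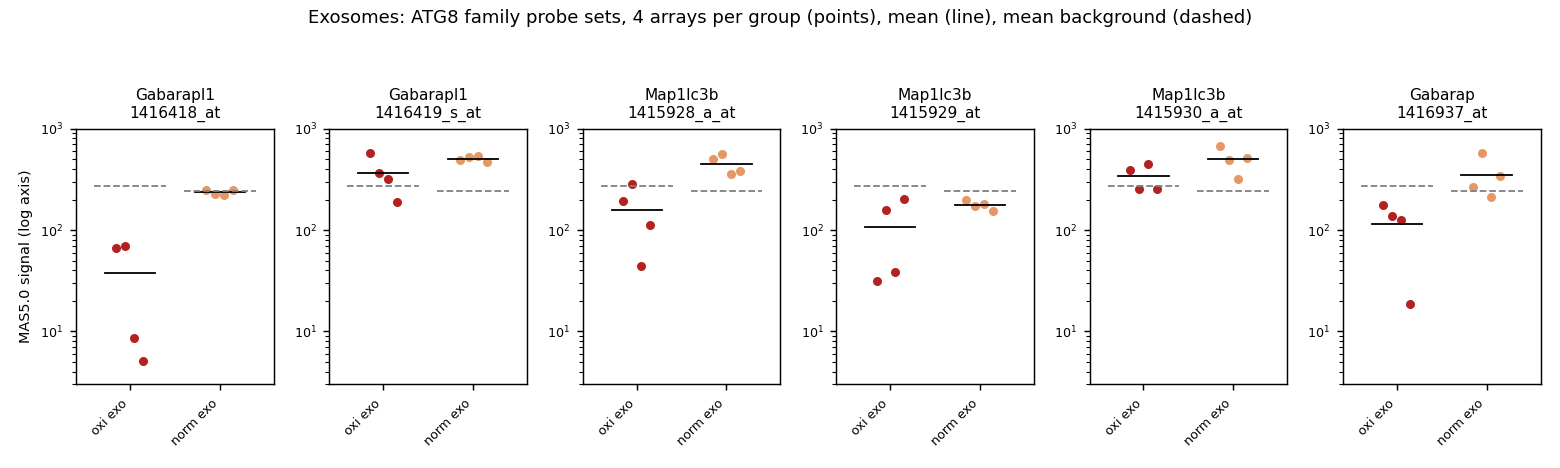
MAS5.0 signal (log axis) of 6 ATG8 family probe sets on the 4 oxi exo and 4 norm exo arrays, with points for arrays, black lines for means and dashed lines for the mean background (270.2 and 244). Gabarapl1 1416418_at and Map1lc3b 1415928_a_at, the probe sets called lower, show separate groups, while the brighter probe sets 1416419_s_at and 1415930_a_at of the same genes overlap.

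Whether H2O2 was accompanied by a different change in exosomes than in cells was tested on the 8 differences between arrays of the same number. Of 28 probe sets, 0 were called higher and 1 lower in the exosome change minus the cell change, where 0.0933% and 1.47% of all probe sets were called, and 7 had an unadjusted p under 0.05. The 1 was Becn1 1460320_at (log2 difference -1.89, standard error 0.39, adjusted p = 0.0358), which was lower in oxi exo than in norm exo and higher in oxi cell than in norm cell for all 4 numbers. This call was lost without replicate 1, 2 or 4 (adjusted p = 0.198, 0.214 and 0.175), and with values below background set to the background (-0.14, adjusted p = 0.213). Gabarapl1 1416418_at missed the threshold (log2 difference -3.35, standard error 0.75, adjusted p = 0.0536), and it passed with quantile normalization (-5.33, adjusted p = 0.0325) and with the spiked controls (-3.62, adjusted p = 0.0176). With values below background set to the background its difference was 0.22 (adjusted p = 0.0524), on the other side of 0. Leaving out 1 replicate number gave it an adjusted p of 0.119 to 0.218. Map1lc3b 1415928_a_at also missed the threshold (log2 difference -1.66, standard error 0.39, adjusted p = 0.0665), so its fall in exosomes is not shown to differ from its change in cells. Scaled to the spiked controls its difference was -1.92 and was called (adjusted p = 0.0159), as it was with values below background set to the background (-0.52, adjusted p = 0.000534). The other Becn1 probe sets were not called, and ran from -2.06 for 1435219_x_at to 1.13 for 1430358_at. The bright 1455880_s_at had a difference of -0.82 (adjusted p = 0.290).

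Exosomes were then set against the cells of the same condition. As these comparisons use the same arrays as those above, the values are given side by side only. Gabarap, Gabarapl1 and Map1lc3b were lower in exosomes than in cells under each of the 3 scalings tried, whereas the direction depended on the scaling for Ulk1 in both conditions and for Atg7 and Map1lc3a in norm exo against norm cell. On the deposited scale, 5 of 28 probe sets were called higher and 11 lower in oxi exo than in oxi cell, against 60.8% and 19.4% of all probe sets. In norm exo against norm cell, 8 were called higher and 11 lower, against 57.7% and 19% of all probe sets. Scaled to the spiked controls, 0 were higher and 26 lower in either condition, and quantile normalization gave 2 higher and 16 lower for oxi exo, and 2 and 10 for norm exo. With the spiked controls, 3.95% of all probe sets were called higher and 49.9% lower in oxi exo, and 2.74% and 51.3% in norm exo. With quantile normalization these shares were 20.6% and 23.7% in oxi exo, and 18.6% and 22.1% in norm exo. The median over all probe sets was 2.67 in oxi exo and 2.23 in norm exo on the deposited scale, 0.20 and 0.16 with quantile normalization, and -1.71 and -1.88 with the spiked controls. The background was 21.4 times higher on oxi exo than on oxi cell arrays, and 15.8 times higher on norm exo than on norm cell arrays, so a probe set at background on both kinds of array appears higher in exosomes.

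Gabarapl1 1416419_s_at averaged 362 ± 162 in oxi exo, 507 ± 31.6 in norm exo, 3859 ± 135 in oxi cell and 4325 ± 152 in norm cell (SD, n = 4 each). In oxi exo minus oxi cell its log2 difference was -3.52 as deposited, -1.97 with quantile normalization and -7.90 with the spiked controls, and in norm exo minus norm cell -3.10 as deposited, -1.50 with quantile normalization and -7.20 with the spiked controls. As deposited, the order of its levels was norm cell, oxi cell, norm exo and oxi exo, of which neighbours in the same kind of sample were not called different. On 1416418_at, which was not above background on any oxi exo array, Gabarapl1 as deposited lay at least 8.26-fold lower in oxi exo than in oxi cell (adjusted p = 3.69e-05). Gabarap averaged 114 ± 67.0 in oxi exo, 349 ± 159 in norm exo, 1700.0 ± 31.6 in oxi cell and 1716 ± 73.1 in norm cell. As deposited it lay at least 6.31-fold lower in oxi exo than in oxi cell (adjusted p = 8.32e-05). In norm exo minus norm cell the Gabarap difference was -2.40 as deposited, -1.11 with quantile normalization and -6.51 with the spiked controls.

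Map1lc3b 1415930_a_at averaged 337 ± 98.7 in oxi exo, 499.6 ± 146 in norm exo, 2203 ± 155 in oxi cell and 2358 ± 54.7 in norm cell. Its difference in oxi exo minus oxi cell was -2.75 as deposited, -1.13 with quantile normalization and -7.13 with the spiked controls, and in norm exo minus norm cell -2.29 as deposited, -0.83 with quantile normalization and -6.40 with the spiked controls. Probe set 1415929_at of the gene, as deposited, lay at least 2.81-fold lower in oxi exo than in oxi cell, and at least 3.51-fold lower in norm exo than in norm cell. Gabarapl2 averaged 247 ± 59.3 in oxi exo, 197 ± 76.2 in norm exo, 641 ± 17.2 in oxi cell and 546 ± 19.6 in norm cell, with a difference in oxi exo minus oxi cell of -1.41 as deposited, -0.44 with quantile normalization and -5.78 with the spiked controls. The last of these falls is common to nearly all members and is read against the median of -1.71. Map1lc3a 1447883_x_at averaged 147 ± 53.5 in oxi exo, 221 ± 3.12 in norm exo, 238 ± 22.0 in oxi cell and 230.3 ± 41.5 in norm cell, values that sit near background in exosomes and far above it in cells (log2 difference -0.04, standard error 0.25, adjusted p = 0.882 in norm exo minus norm cell).

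Becn1 1455880_s_at averaged 238 ± 40.1 in oxi exo, 364 ± 98.8 in norm exo, 924 ± 56.7 in oxi cell and 783 ± 36.9 in norm cell. It was lower in exosomes as deposited (-1.97 in oxi exo, -1.15 in norm exo), but with quantile normalization the difference was -0.90 in oxi exo and -0.01 in norm exo and neither was called (adjusted p = 0.0632 and 0.971). Atg12 1451747_a_at, measured in cells, was below background on all exosome arrays, with means of 17.9 ± 10.8 in oxi exo, 20.3 ± 7.16 in norm exo, 157 ± 31.3 in oxi cell and 194 ± 15.3 in norm cell. No fold can be given for it, since its cell signals are themselves below the exosome background. Among the representative probe sets, the called rises were those of dim ones: Ulk1 1448370_at was 1.17 higher on the log2 scale in oxi exo than in oxi cell (adjusted p = 0.00701) and Atg7 1428612_at 1.28 higher in norm exo than in norm cell (adjusted p = 0.00308). Other dim probe sets were also called higher, among them Map1lc3a 1451290_at (2.58 in oxi exo, 1.85 in norm exo) and Becn1 1430358_at (4.69 and 3.56). Becn1 1460320_at was called lower, as was the representative of the gene (-2.94 in oxi exo, -1.06 in norm exo for 1460320_at). Scaled to the spiked controls, Ulk1 was at -3.21 and Atg7 at -2.83. No probe set called higher in exosomes was above background on all 4 exosome arrays.

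**Figure D4:**
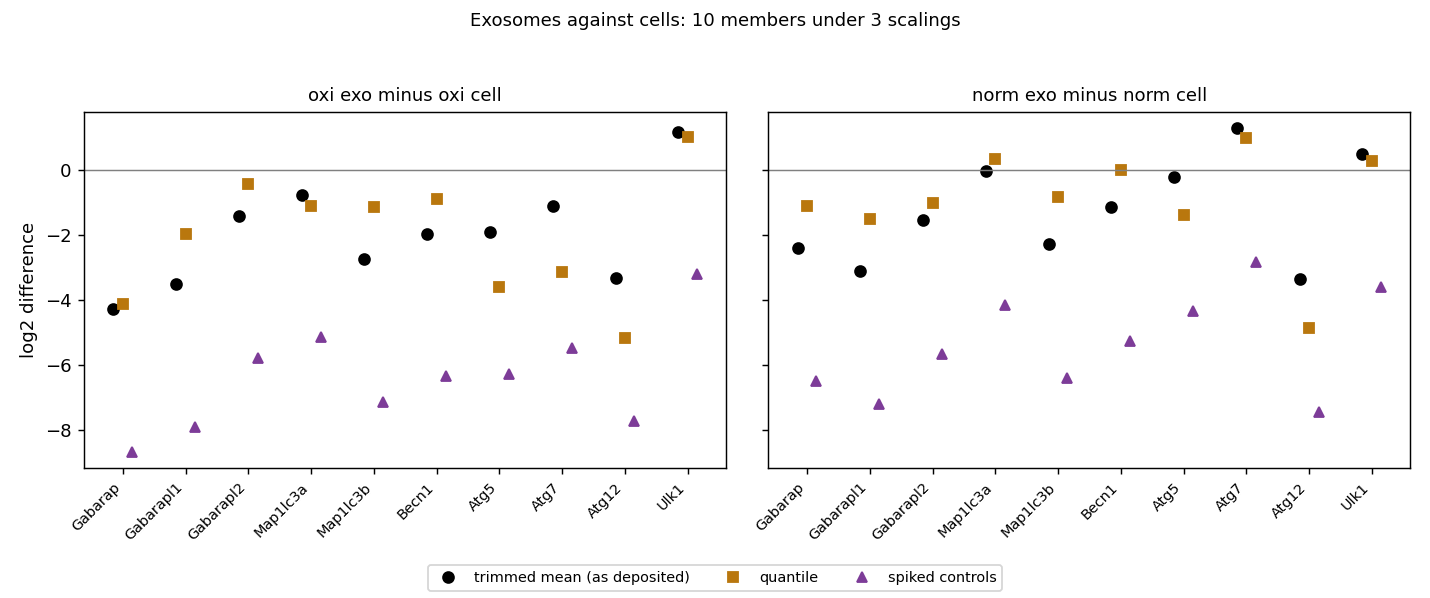
Log2 difference of exosomes minus cells for the representative probe set of each of the 10 genes, for H2O2 on the left and normal conditions on the right, as deposited (circles), with quantile normalization (squares) and scaled to the spiked controls (triangles). Gabarap, Gabarapl1, Map1lc3b and Atg12 lie below 0 under all 3 scalings in both panels, and Ulk1 lies above 0 under all but the spiked controls.

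Other genes of the pathway were taken from lists of initiation, conjugation, cargo receptor, fusion and regulator genes, of which 62 of 64 had a probe set with 1 symbol. In cells, 4 were called higher and 5 lower, with a median log2 difference of -0.02, against -0.15 over all probe sets. That is 4 and 5 of 62 genes, where 4.31% and 5.51% of all probe sets and 9.33% and 11.6% of the detected ones were called, so the counts are close to those shares. With the spiked controls as the scale, 25 were higher and 0 lower, against 14.3% and 0.955% of all probe sets. By list, 0 of 20 initiation genes were higher and 2 lower, 1 of 8 conjugation genes was higher and 1 lower, 0 of 8 cargo receptors were higher and 1 lower, 2 of 12 fusion genes were higher and 0 lower, and 1 of 14 regulators was higher and 1 lower. Atg3, the enzyme that passes ATG8 proteins to the lipid, had 669, 617, 599 and 637 in oxi cell, against 451, 442, 450.4 and 467 in norm cell and rose without overlap (log2 difference 0.48, standard error 0.06, adjusted p = 0.000615). Atg4c, one of the proteases that trim and release ATG8 proteins, had 26.4, 36.3, 32.1 and 32.8 in oxi cell, against 38.2, 47.4, 57.7 and 52.1 in norm cell and fell (log2 difference -0.61, standard error 0.16, adjusted p = 0.0383). Ambra1, a Beclin 1 partner, had 110.1, 129.7, 111 and 101 in oxi cell, against 152, 165, 169 and 143 in norm cell and fell (log2 difference -0.48, standard error 0.09, adjusted p = 0.00500). Thus a partner of Beclin 1 was lower in the same cells in which Becn1 was higher.

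Wipi2, the lipid reader that brings the ATG12 to ATG5 conjugate to the membrane, had 107, 108, 104 and 85.8 in oxi cell, against 138, 132, 124 and 133 in norm cell (log2 difference -0.38, standard error 0.10, adjusted p = 0.0305). Trp53inp1, a p53 target whose product binds ATG8 proteins, had 565, 674, 596 and 609 in oxi cell, against 433, 486, 417 and 419.5 in norm cell (log2 difference 0.48, standard error 0.06, adjusted p = 0.000628). In both, the groups did not overlap. The remaining called genes, named after their values were seen, were Vamp8 (log2 difference 0.26) and Rab7 (0.22), which act in fusion with the lysosome and were higher, and Bnip3 (-0.32), a receptor for mitochondria, and Prkaa1 (-0.31), a catalytic subunit of the energy sensor AMPK, which were lower. Atg3, Trp53inp1 and Ambra1 remained called without each replicate number in turn. Scaled to the spiked controls the 4 rises remained called and the 5 falls did not (Ambra1 -0.18, Wipi2 -0.09, Atg4c -0.31, Bnip3 -0.03 and Prkaa1 -0.01 on the log2 scale, adjusted p = 0.339 to 0.972). With quantile normalization Wipi2, Atg4c, Rab7 and Prkaa1 were no longer called (adjusted p = 0.0954 to 0.184), and with the methods' paired test on log2 or linear signals 0 of the 9 were. Wipi2 lost its call without replicate 1, 2 or 4 (adjusted p = 0.101, 0.0793 and 0.145), Vamp8 without replicate 2 or 4 (0.0641 and 0.0696), and Bnip3 without replicate 1, 2 or 4 (0.0841, 0.0532 and 0.121). Atg4c, Rab7 and Prkaa1 lost theirs whichever number was left out (adjusted p = 0.0793 to 0.125, 0.0559 to 0.110 and 0.0577 to 0.206).

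**Figure D5:**
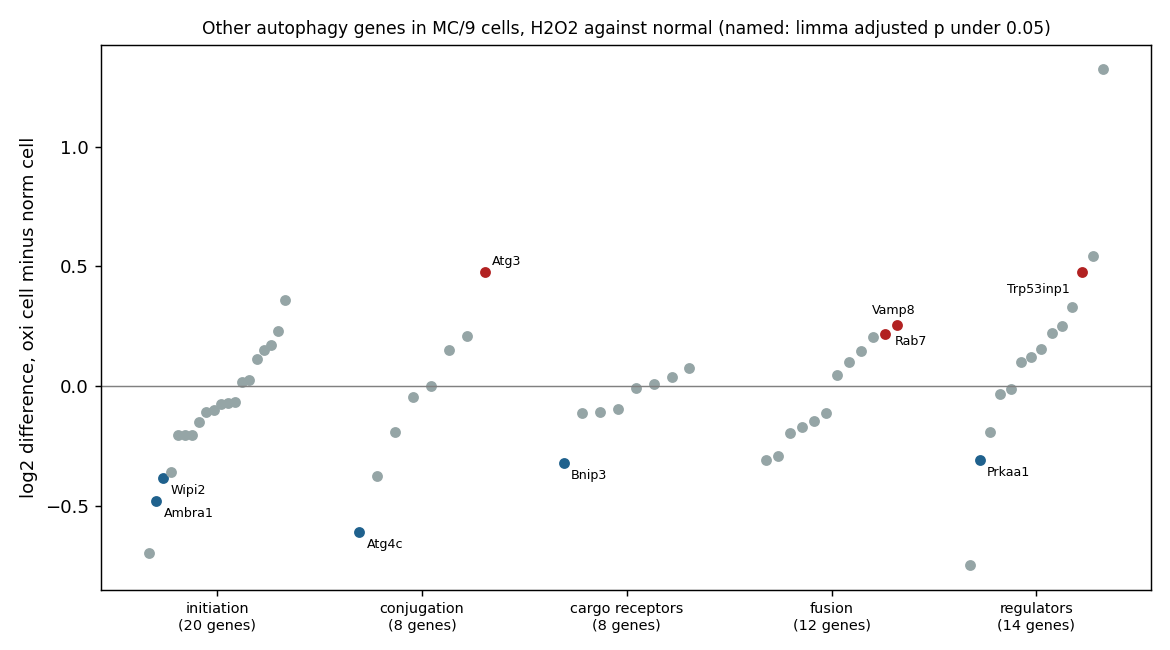
Log2 difference of oxi cell minus norm cell for 62 other autophagy genes in 5 lists, each point 1 gene, sorted within its list. The 4 genes called higher (red) and 5 called lower (blue) by limma are named, and differences in each list lie on both sides of 0.

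In exosomes, 0 of the 62 were called higher and 2 lower in oxi exo than in norm exo. Of all probe sets, 0.0311% and 1.7% were called. Of the detected ones, most of which passed in norm exo, 31.4% were called lower. The median log2 difference of the 62 was -0.34, against 0.06 over all probe sets and -0.58 over the detected ones. Wdr45b, a relative of the WIPI lipid readers, had 208, 123, 231 and 119.9 in oxi exo, against 400.5, 392, 472 and 400.4 in norm exo (log2 difference -1.35, standard error 0.30, adjusted p = 0.0287). Foxo3, a transcription factor that drives autophagy genes, had 133, 215, 205 and 149 in oxi exo, against 557, 451, 369.7 and 549 in norm exo (log2 difference -1.47, standard error 0.31, adjusted p = 0.0164). Both were above background on all 4 norm exo and on 0 oxi exo arrays, and their groups did not overlap. The call for Wdr45b was lost whichever number was left out (adjusted p = 0.0529 to 0.137), and that for Foxo3 without replicate 1 or 4 (0.115 and 0.0968). The exosome change was lower than the cell change for Wdr45b (log2 difference -1.52, adjusted p = 0.0268) and for Ncoa4, the receptor for ferritin (-2.21, adjusted p = 0.0103), which was not above background on any exosome array. Wdr45b lost this call whichever number was left out (adjusted p = 0.0706 to 0.171), and Ncoa4 without replicate 1, 2 or 4 (0.0763, 0.0993 and 0.0579) or with values below background set to the background (log2 difference 0.07, adjusted p = 0.491). Between exosomes and cells as deposited, 14 of 62 were higher and 33 lower in oxi exo than in oxi cell, and 18 higher and 25 lower in norm exo than in norm cell. Of all probe sets, 60.8% and 19.4% were called in oxi exo and 57.7% and 19% in norm exo. With quantile normalization the pathway counts were 3 and 34 in oxi exo and 10 and 26 in norm exo, and with the spiked controls 0 and 58 in oxi exo and 0 and 59 in norm exo. Under quantile normalization 20.6% and 23.7% of all probe sets were called in oxi exo, and 18.6% and 22.1% in norm exo. Under the spiked controls the shares were 3.95% and 49.9% in oxi exo, and 2.74% and 51.3% in norm exo. The genes named here were below background on all exosome arrays of the comparison, so only limits can be given, and these hold for the deposited scale only. The cargo receptor Tax1bp1 lay at least 6.32-fold lower in oxi exo than in oxi cell (adjusted p = 5.56e-05) and at least 7.05-fold lower in norm exo than in norm cell (adjusted p = 2.49e-05). Nrbf2, a subunit of the Beclin 1 complex, lay at least 2.05-fold lower in oxi exo (adjusted p = 0.000222) and 2.44-fold lower in norm exo (adjusted p = 8.98e-06). Ncoa4 lay at least 2.08-fold lower in oxi exo (adjusted p = 1.44e-05), and Rab7 at least 4.81-fold lower in norm exo (adjusted p = 2.57e-05). Tsc2, a brake on mTORC1, in both comparisons, the tethering subunit Vps16 in oxi exo and Atg101, a subunit of the ULK1 complex, in norm exo were also called lower, but the cell signals there averaged below the exosome background and no fold can be given.

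Across the 16 arrays, the probe sets of other genes whose log2 signals were most like Gabarap were those of Supt5 (r = 0.994), Ttc3 (0.991), Pcbp2 (0.989), Gas5 (0.989) and Ctla2a (0.989), out of 17811 candidates. Those most like Gabarapl1 1416419_s_at were ND5 (r = 0.995), Son (0.995), Rpl7 (0.993), Cd47 (0.993) and Fcer1g (0.993), out of 17810. These Pearson correlations are a description only, since all points share the difference in scale between exosome and cell arrays, and 358 candidates for Gabarap and 975 for Gabarapl1 were over 0.95. Among the members, Gabarapl1 correlated at 0.972 with Map1lc3b, 0.938 with Gabarap, 0.880 with Gabarapl2 and -0.85 with Ulk1 over the same arrays.

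The 250 bases upstream of the start were available for 7 of the 10 genes, and were searched on both strands for the E-box core CACGTG, which factors such as TFEB bind in autophagy and lysosome genes, for the antioxidant response element core TGACNNNGC and for the forkhead element TGTTTAC. The E-box core was found in 2 of 7 windows, those of Atg7 and Atg5, and in 6.021% of all 32851 windows. The other motifs were found in 0 of 7, and in 10.161% and 3.166% of all windows. Both sites are shown with their surroundings, the motif in capitals, from RefSeq in GRCm38.p6. The Atg7 stretch is chr6:114670947-114670986 on the plus strand, with the motif starting 132 bases before the gene, and the Atg5 stretch chr10:44268308-44268338 on the plus strand, with the motif 14 bases before it.
Atg7: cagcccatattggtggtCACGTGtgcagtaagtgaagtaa
Atg5: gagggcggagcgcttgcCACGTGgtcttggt
A match is a description of the letters and not evidence of binding. Atg7 and Atg5 had no called difference between oxi cell and norm cell, at -0.02 and 0.10 on the log2 scale.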

How the data were processed

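RNA of exosomes and of MC/9 cells was hybridized to 16 single-colour arrays. The authors deposited intensity values on a linear scale (MAS5.0, from GCOS 1.2 per the labels), which they had scaled array by array to a trimmed mean (2% at each end). The paper writes 430A 2.0 for the array, but 45101 probe sets, those of the 430 2.0, are present. Of these, 64 controls were left out, and 45037 were tested (34945 with 1 symbol, 932 with several, 9160 with none). Detection calls were not used here.

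limma 3.58.1 under R 4.3.3 (lmFit, then eBayes with trend) was run on the log2 signals of the 8 arrays compared. Replicate number was included as a block, the study's own test being paired. Benjamini-Hochberg adjustment covered all 45037 probe sets, with calls made under 0.05. For the H2O2 change in exosomes against that in cells, the 8 same-number differences were fitted. A probe set counted as detected when above background on all 4 arrays of a group. The members and gene lists were chosen with earlier results of these data known. Each gene was represented by its probe set of highest mean signal, and up to 5 other pathway genes per comparison, with the largest called differences and detected in a group compared, were named. The fits were tested on simulated data. Python 3.11.15 with pandas 2.3.3, numpy 2.4.6, scipy 1.17.1 and matplotlib 3.10.9 was used for the rest. As alternatives, the block was dropped, each replicate number was left out, signals were quantile normalized or scaled to 9 spiked control probe sets, dim probe sets were filtered, 100 was added before log2, values were floored at background, the paired test of the methods was used, and other probe sets stood for a gene. The number of arrays limits the precision.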

Additional observations from a re-analysis of the deposited data

Results flagged for a closer look

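In 8 of 112 groups of 4 arrays, 1 array stood apart from the rest, with a gap to its nearest neighbour that took more of the group's range than Dixon's 95% critical value, where chance gives about 1 group in 20. In oxi exo these were Becn1 1460320_at in replicate 3 at 126 (the other 3 at 53.5 to 62.9, ratio 0.872) and Ulk1 1416504_at in replicate 4 at 15.3 (the other 3 at 8.95 to 9.52, ratio 0.91). In norm exo, replicate 4 was apart for Becn1 1437006_x_at at 135 (the other 3 at 85.7 to 93.6, ratio 0.839), Atg7 1428610_at at 135 (the other 3 at 26.0 to 40.0, ratio 0.871) and Atg12 1451746_a_at at 112 (the other 3 at 38.5 to 47.2, ratio 0.883). In oxi cell they were Map1lc3a 1447883_x_at in replicate 3 at 270.4 (the other 3 at 222 to 230.1, ratio 0.839) and Map1lc3b 1415928_a_at in replicate 4 at 1060.0 (the other 3 at 1149 to 1159, ratio 0.9), and in norm cell Atg7 1446633_at in replicate 3 at 18.9 (the other 3 at 5.46 to 7.64, ratio 0.838). The exosome values among them were all below background.

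The change of Becn1 1460320_at with H2O2 in exosomes minus that in cells was -1.89 on the log2 scale (limma on the within-number differences, adjusted p = 0.0358), and the probe set moved down in all 4 numbered pairs of exosomes and up in all 4 of cells. Its signal was above background on 0 of 4 oxi exo and 1 of 4 norm exo arrays, the difference was -0.14 with values below background set to the background (adjusted p = 0.213), and the call was lost without replicate 1, 2 or 4. Becn1 1430358_at, not above background on all arrays of any group, lay the other way (1.13, adjusted p = 0.674). Becn1 1435219_x_at moved in the same opposite ways in every numbered pair, at -2.06, but did not pass the test of the difference (adjusted p = 0.177). Its exosome signals were below background on all 8 arrays.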

How the results depend on the processing

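The 791 checks covered the representative or called probe sets, by a refit or by another probe set of the gene. Of these, 621 kept the direction and the side of the threshold, 69 kept the direction and lost a call, and 43 kept it and gained one. In 13 the direction turned with a call before or after, and in 45 it turned without a call in either. Among the latter were Gabarap in cells without replicate 1 (0.02) and Atg7 in cells without replicate 3 (0.14). Leaving out 1 replicate number, the calls among the 28 probe sets ran from 0 to 0 higher and 1 to 2 lower in exosomes with H2O2, 0 to 2 higher and 0 to 2 lower in cells, 0 to 0 higher and 0 to 1 lower for the difference of the changes, 5 to 6 higher and 10 to 12 lower in oxi exo against oxi cell, and 6 to 8 higher and 11 to 11 lower in norm exo against norm cell. The cause of the changes below was not tested. In cells, the counts were 4 and 3 (higher and lower) with the filter on dim probe sets. With a floor at background they were 4 and 8, and with log2(signal + 100) 3 and 0. Over detected probe sets only they were 4 and 4. Either quantile normalization gave 1 and 2, the spiked controls 8 and 0, and the methods' paired test 0 and 0 on either scale. In the same cells the floor called 3276 of all probe sets higher and 28339 lower, and the spiked controls 6443 and 430. Log2(signal + 100) gave 1657 and 1913 of all probe sets. Quantile normalization gave 2047 and 1781, and 2075 and 1818 within the cell arrays. The 8 lower with the floor and the 8 higher with the spiked controls thus went with the direction of the array at large. For exosomes with H2O2 the member counts were 1 and 5 with the floor, 0 and 5 with log2(signal + 100), 0 and 1 over detected probe sets or with quantile normalization within the exosome arrays, and 0 and 0 with the paired test. Of all probe sets, 1134 and 1399 were called there with the floor, and 39 and 1000 with log2(signal + 100). Quantile normalization within the exosome arrays gave 115 and 276. For the difference of the changes the member counts were 6 and 3 with the floor, 0 and 4 with log2(signal + 100), 0 and 3 with the filter, quantile normalization or the spiked controls, and 0 and 0 with the paired test. Here the floor called 30091 of all probe sets higher and 2064 lower, and log2(signal + 100) 201 and 977. With quantile normalization 20 and 239 were called, and with the spiked controls 26 and 882.

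Against cells, the counts in oxi exo were 18 and 9 with the floor, 3 and 10 over detected probe sets, 3 and 10 with the paired test on linear signals, 2 and 16 with quantile normalization and 0 and 26 with the spiked controls, and in norm exo 18 and 9, 3 and 11, 4 and 11, 2 and 10, and 0 and 26 in the same order. With the floor, 39059 of all 45037 probe sets were called higher and 4783 lower in oxi exo, and 38566 and 4767 in norm exo. Most of the array was thus called higher with it. The shares of all probe sets with quantile normalization and with the spiked controls are given above. Where a call was involved, directions turned with the floor for Gabarapl1 1416418_at in exosomes with H2O2 (0.10), Atg5 (1.25 in norm exo, 1.30 in oxi exo against cells), Atg12 (0.33 and 0.80) and Atg7 in oxi exo against cells (1.82). The floor makes a probe set below background in both a comparison of backgrounds. Scaled to the spiked controls, Gabarap (0.28) and Map1lc3b (0.20) turned in cells, as did Ulk1 (-3.61 in norm exo, -3.21 in oxi exo) and Atg7 (-2.83 in norm exo) against cells. Other probe sets turned Becn1 (1430358_at, -0.72) and Map1lc3a (1451290_at, -0.65) in cells.

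Samples share a number, but same-numbered arrays did not deviate together throughout (correlations of deviations -0.02 to 0.49 in exosomes and -0.05 to 0.08 in cells). Between arrays of different numbers these correlations ran from -0.55 to 0.56 in exosomes and from -0.15 to 0.17 in cells. Without the replicate block the counts were 3 higher and 2 lower in cells, 0 and 3 in exosomes, 0 and 2 for the difference of the changes, 6 and 11 in oxi exo against oxi cell and 7 and 11 in norm exo against norm cell, and Becn1 1435219_x_at lost its call in cells (adjusted p = 0.0773). Signal over background limits the exosome values, where 0 member probe sets in oxi exo and 3 in norm exo were detected. The fit of exosomes with the floor was made without the trend.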
